A study of Mus musculus with 24 samples.

Results

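The 35 genes described here encode subunits of the corepressor complexes that carry the histone deacetylases Hdac1 and Hdac2, together with close relatives of such subunits. They were taken as a list of gene symbols matched to the deposited tables, and all 35 of 35 were found among 25755 genes. By complex they comprised 12 Sin3 subunits, 9 NuRD subunits, the histone chaperones Rbbp4 and Rbbp7 that Sin3 and NuRD share, 6 CoREST subunits, 3 MIER proteins, 2 NCoR subunits and 1 MiDAC subunit. The rule used gene symbols and no measured value, but the list was chosen with earlier results of these data known. Expression was measured by RNA-seq in cells of the dermal papilla (DP), a mesenchymal cell cluster under the hair follicle that directs its cycle of growth (anagen), regression and rest (telogen).

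Hdac1 and Hdac2 remove acetyl groups from histone tails and have little sequence preference of their own. Corepressor complexes bring them to the genome: a scaffold such as Sin3a, an Mta protein or an Rcor protein holds the deacetylase, and other subunits read histone marks, bind transcription factors or remodel nucleosomes. Many subunits exist as paralogues that take the same place in a complex, so the make-up of each complex can differ between cells. NCoR mainly carries Hdac3 and therefore stands apart from the others.

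Deletion was driven by Cor-cre, a Cre line based on the Corin gene that acts in the DP after birth, so that other skin cells kept the floxed alleles. Mutants (dM1/2) were Cor-cre/+;Hdac1 Flox/Flox;Hdac2 Flox/Flox, and controls carried Cor-cre/+ as well. The study's controls could be Flox/+ at both genes, Flox/+ at Hdac1 or at Hdac2 alone, or Flox/Flox at either gene with Flox/+ at the other, and the labels do not say which of these a given library had. YFP-positive cells, marked by a ROSA26 EYFP reporter, were sorted from back skin of single mice at postnatal days 20, 24, 28 and 60 (P20, first telogen, P24, early second anagen, P28, mid anagen, and P60, second telogen), with 3 control and 3 dM1/2 libraries at each age and 24 in all.

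Libraries held 11635062 to 13369732 reads in genes at P20, 35469841 to 49331751 at P24, 37171260 to 48331795 at P28 and 8171944 to 9724000 at P60, and every member had a read in all 24 of them. Values below are normalized reads, which are read counts divided by the authors' size factor for the library. Female mice were used at P20 and males in anagen. The transcript Xist was at 8113 normalized reads or more in every P20 and P60 library and at most 3.92 in every P24 and P28 library, so stage, sex and depth changed together and cannot be told apart. All 14 DP markers were detected in every group. Of them, 8 were called lower in dM1/2 at P24, and 6 lower and 1 higher at P28. The summed level of the 14 was 394189 to 486706 in controls and 208169 to 252412 in dM1/2 at P24, and 199324 to 546457 and 158492 to 179469 at P28. In telogen these sums were far lower, at 49005 to 62014 in controls and 63342 to 81938.5 in dM1/2 at P20. At P60 they were 31796 to 52998 and 23607 to 45141. Telogen and anagen libraries thus differed in DP marker level, and its part in the members' results was not tested. The 10 dividing-cell markers were all called higher in dM1/2 in both anagen ages, with sums of 2876 to 7286 in controls against 11085 to 14873 at P24 and 1157 to 1407 against 8509 to 10224 at P28. Keratinocyte, melanocyte and skeletal muscle lists summed to at most 812, 209 and 130 normalized reads in any library. The endothelial, immune, dermal sheath and other fibroblast lists reached sums of 6046, 851, 9846 and 7768920 normalized reads. The other fibroblast sum, which includes Col1a1, ran from 291029 to 5865290 among the P28 controls. In each of the endothelial, immune, dermal sheath and other fibroblast lists, at most 1 marker was called in each direction at any age. Of the keratinocyte markers, 2 of the 8 tested were called lower at P24. With such a spread, few calls do not show that the cell composition was alike. Whether the members' differences go with the share of dividing cells was not tested, and in bulk samples fewer cells of a type and less RNA per cell cannot be told apart.

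The ablated genes were read over the whole gene, deleted and retained exons together, so these values are transcripts and not protein. By immunostaining in anagen of the first cycle, the study found few mutant DP cells with Hdac1 or Hdac2 protein. Hdac1 was at 675, 668 and 668 normalized reads in the control libraries and 209, 188 and 116 in the dM1/2 libraries at P24, without overlap, and its log2 fold change was -2.01 ± 0.22 (SE, 95% confidence interval -2.52 to -1.50, limma adjusted p = 0.00167). At P28 it was at 214, 529 and 105 normalized reads in the control libraries and 190.2, 149 and 126 in the dM1/2 libraries. The library labelled P28 control replicate 3 thus lay below all 3 dM1/2 libraries, and the log2 fold change of -0.58 was not called (limma adjusted p = 0.454). Leaving that library out gave -1.13 (limma adjusted p = 0.0426). That library was singled out by its Hdac1 value, so this fit is no independent test of Hdac1. Of the 6 fits without 1 library it was the only one that called Hdac1, and the log2 fold change without control replicate 2 was 0.03. The 10 most abundant genes of control replicate 3 took 13.6% of all reads, the smallest share of the 24 libraries, whose highest was 52.8%. The DP marker Corin was at 75260 normalized reads in it, against 41110 and 30330 in the other P28 controls and 4009 to 5005 in dM1/2. Controls Flox/Flox at Hdac1 were among the study's genotypes. Whether this library was one of them is not labelled and was not tested. Counts of members at P28 are therefore also given without it. Hdac1 was not called at P20 (log2 fold change -0.72) or P60 (-0.25). Of the 6 fits at P20 without 1 library, only that without control replicate 1 called Hdac1 (-0.87, limma adjusted p = 0.0413). In the others the limma adjusted p reached 0.327. Hdac2 was at 925, 1048 and 1069 normalized reads in the control libraries and 1157, 1223 and 1282 in the dM1/2 libraries at P24, higher without overlap, and its log2 fold changes of -0.01, 0.27, 0.16 and 0.08 over the 4 ages were not called.

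The corepressor genes covered a wide range of abundance in control DP cells, compared here as normalized reads per kilobase of exon. In P24 controls the most abundant were Rbbp7 at 955 ± 136 (SD, n = 3), the NuRD remodelling ATPase Chd4 at 827 ± 143 and its paralogue Chd3 at 585 ± 51.3. The histone-tail and Hdac-binding subunits Mta2 (551 ± 15.6) and Mta1 (523 ± 9.49) and the methyl-CpG-binding domain protein Mbd3 (493 ± 16.7) followed. Rbbp7, Chd4 and Chd3 filled the first 3 places of P28 controls as well, at 703 ± 92.1, 654 ± 101 and 641 ± 161, and their spreads overlapped. The least abundant were Sap30 at 26.7 ± 11.4, Rcor3 at 44.0 ± 4.64 and Rcor2 at 51.3 ± 13.2 in P24 controls, and Rcor2 at 20.5 ± 8.9 and Sap30 at 29.0 ± 7.88 in P28 controls. In dM1/2 libraries Sin3a took the third place at both anagen ages, at 601 ± 10.8 and 589 ± 38.8, while Rcor3 was lowest at 41.3 ± 4.9 and 39.2 ± 4.16.

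Promoter sequences of members that rose in both anagen ages are shown to let their upstream regions be compared. Of the 35 members, 30 had at least 1 RefSeq window from 250 bases before to 50 bases after a transcription start (GRCm38.p6), 43 windows in all, and Brms1, Arid4a, Mta3, Chd3 and Mbd2 had none. The stretches lie outside the annotated exons of any gene, on the upstream side of the start, are printed 5′ to 3′ on the gene's strand, and come from the members called higher at both ages for which at least 100 such bases were present. The Sin3a stretch precedes a second start, inside the gene, because an exon of Gm10658 on the other strand covers the beginning of the window at its first start. The Sap30 window begins in an exon of 2500002B13Rik on the other strand and is not printed. Capitals mark matches, on either strand, to the 7 motifs searched.
Rcor2, chr19:7267144-7267324, + strand: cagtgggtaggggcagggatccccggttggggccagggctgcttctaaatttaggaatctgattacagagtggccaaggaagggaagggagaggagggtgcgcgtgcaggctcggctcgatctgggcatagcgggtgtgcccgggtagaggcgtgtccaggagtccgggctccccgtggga
Sin3a, chr9:57076126-57076375, + strand: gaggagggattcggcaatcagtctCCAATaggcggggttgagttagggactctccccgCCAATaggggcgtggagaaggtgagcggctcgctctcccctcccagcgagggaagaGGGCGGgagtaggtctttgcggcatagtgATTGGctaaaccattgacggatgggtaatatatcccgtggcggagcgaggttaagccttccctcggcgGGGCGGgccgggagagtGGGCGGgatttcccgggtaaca
Suds3, chr5:117116114-117116243, - strand: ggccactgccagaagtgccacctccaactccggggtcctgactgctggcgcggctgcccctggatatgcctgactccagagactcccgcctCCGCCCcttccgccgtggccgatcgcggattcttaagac
Gatad2a, chr8:69996385-69996634, - strand: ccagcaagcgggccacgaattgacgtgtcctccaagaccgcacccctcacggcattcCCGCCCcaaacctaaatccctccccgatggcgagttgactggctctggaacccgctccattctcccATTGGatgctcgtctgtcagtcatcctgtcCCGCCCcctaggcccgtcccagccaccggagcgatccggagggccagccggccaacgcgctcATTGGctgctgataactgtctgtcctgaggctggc

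The motifs were TTTNNCGC (named for E2F), CCAAT (NF-Y), CCGGAA (ETS), GGGCGG (SP/KLF), CACGTG (E-box), TGACGTCA (CRE) and the NRF1 motif, none of which holds another by its letters alone. The Sin3a stretch held 3 CCAAT and 3 GGGCGG matches, the Gatad2a stretch 2 of each, the Suds3 stretch 1 GGGCGG match and the Rcor2 stretch none. Over whole windows, GGGCGG was found in 36 of the 43 member windows (25 of the 30 members) and in 35.7% of all 32851 windows. CCAAT was in 25 member windows (18 of 30 members) and in 37.4% of all windows. The E2F motif was found in 2 member windows (Sap30 and Sin3b) against 5.17% of all windows. The E-box was in 2 (Rbbp4 and Rcor2) against 7.15%, and the ETS motif in 9 (9 members) against 14.9%. The NRF1 motif was in 9 (6 members) against 4.6% and the CRE in 1 (Dnttip1) against 1.79%. Member windows had a median GC content of 65.3%, against 52.7% over all windows, and a member can have several windows. These matches describe letters in a window and were not tested against expression.

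A group of corepressor genes was at higher levels in the libraries labelled dM1/2 than in controls in anagen, and most of that group belonged to the Sin3 complex. At P24, 10 of the 35 members (28.6%) were called higher in dM1/2 and 2 (5.71%) lower, where 14.8% and 11.8% of all genes tested were called. At P28, 10 (28.6%) were called higher and 5 (14.3%) lower, against 20.0% and 15.6%. A call is a limma p-value under 0.05 after Benjamini-Hochberg adjustment over all genes tested. The members' median log2 fold change was 0.14 at P24 and 0.16 at P28, beside -0.01 and 0.00 for all genes. The share of members called lower was thus near or below the background, and the share called higher above it at both ages, by less at P28 when control replicate 3 was left out (25.7% against 21.8%).

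Few members were called in telogen. At P20, 1 member (2.86%), Sin3a, was called higher and none lower, against 0.354% and 0.0795% of all genes, and 7 members had an unadjusted p under 0.05. The count at P20 was 4 without control replicate 1, where Arid4a (limma adjusted p = 0.0297), Rcor2 (0.0429) and Rcor3 (0.0304) joined Sin3a, and 0 without any one of the other 5 libraries. Without control replicate 1, 5.20% of all genes were called higher and 5.86% lower at P20, 719 and 811 genes in place of 49 and 11. DESeq2 called Rcor2 at P20 as well (adjusted p = 0.0236). At P60 no member and no gene was called by limma on the P60 libraries alone (0% of 14042). The single fit over 24 libraries called 5 genes higher and 14 lower at P60 and DESeq2 6 and 19, without a member among them, and 525 genes, none of them a member, had an unadjusted p under 0.05 (lowest member limma adjusted p = 0.986). The log2 fold changes of the members at P60 lay between -0.33 (Rcor2, 95% confidence interval -1.47 to 0.82) and 0.35 (Chd3, -0.04 to 0.74). Groups did not overlap, with dM1/2 higher, for 7 members at P20 (12.1% of all genes), 12 at P24 (23.8%), 15 at P28 (28.0%) and 2 at P60 (4.79%). With dM1/2 lower, they did not overlap for 2 (13.3%), 4 (21.0%), 6 (23.3%) and 0 (4.08%) members.

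**Figure D1:**
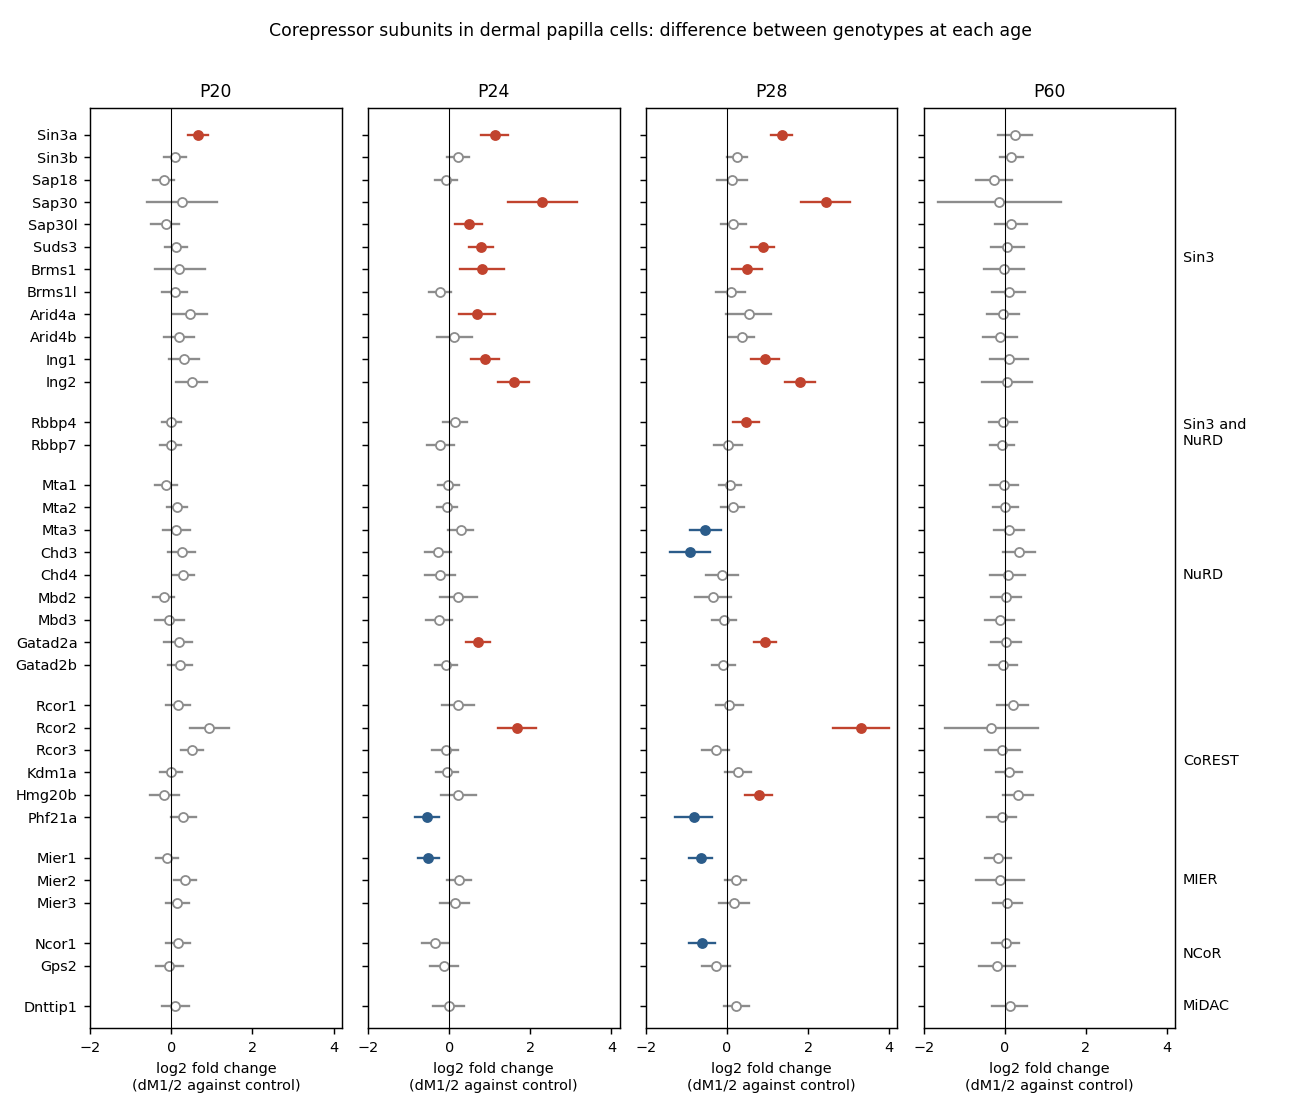
Log2 fold change of dM1/2 over control (horizontal axis) for each of the 35 members, by complex, at P20, P24, P28 and P60, with 95% confidence intervals. Filled red points were called higher and filled blue points lower by limma, and open grey points were not called. The Sin3 subunits reach 2.30 at P24 and 2.43 at P28 (Sap30), the CoREST subunit Rcor2 reaches 3.30 at P28, and at P60 no member is called.

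Across both anagen ages, 8 members rose at P24 and at P28 (Rcor2, Sap30, Ing2, Sin3a, Ing1, Suds3, Gatad2a and Brms1) and 2 fell at both (Phf21a and Mier1). The share of all genes called in the same direction at both ages was not counted, so these joint counts have no background beside them. Sap30l and Arid4a were called at P24 only, and Rbbp4, Hmg20b, Mta3, Chd3 and Ncor1 at P28 only. The other 18 were called at neither age, with log2 fold changes between -0.34 and 0.36 and confidence intervals between -0.78 and 0.68, so that changes of 1 or more on the log2 scale were outside every interval. Of the 10 members called at both ages, 7 kept their calls whichever single library was left out: Sin3a, Sap30, Suds3, Ing1, Ing2, Gatad2a and Rcor2.

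The Sin3 complex is built on Sin3a or Sin3b, and 8 of its 12 subunits measured here were called higher at P24 and 6 at P28, with none lower, where 14.8% and 20.0% of all genes were called higher. Their median log2 fold change was 0.73 at P24 and 0.51 at P28, beside -0.01 and 0.00 for all genes. The calls of Sin3a, Sap30, Suds3, Ing1 and Ing2 held at both ages whichever library was left out. Those of Sap30l, Brms1 and Arid4a did not.

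Sin3a (chromosome 9, 57072040 to 57128366, GRCm38), the scaffold to which deacetylases and transcription factors bind, was the member called at 3 ages. At P24 it was at 1280.2, 1420.3 and 1812 normalized reads in the control libraries and 3173, 3285 and 3256 in the dM1/2 libraries. At P28 the values were 1285, 1166 and 1281 in control and 3399.9, 3117 and 2993 in dM1/2. The groups stood well apart at both ages, and each dM1/2 library was above every control. Its log2 fold change was 1.12 ± 0.15 (SE, 95% confidence interval 0.78 to 1.46, limma adjusted p = 0.00255) at P24 and 1.35 ± 0.11 (SE, 95% confidence interval 1.08 to 1.61, limma adjusted p = 0.00046) at P28. At P20 Sin3a was at 1049.9, 1117 and 1061 normalized reads in the control libraries and 1821, 1532 and 1742 in the dM1/2 libraries, again without overlap, a log2 fold change of 0.65 ± 0.11 (SE, 95% confidence interval 0.40 to 0.91, limma adjusted p = 0.0491). The P20 call was lost without control replicate 2 (limma adjusted p = 0.116), control replicate 3 (0.192) and dM1/2 replicates 1 (0.115), 2 (0.109) and 3 (0.188). At P60 the groups overlapped (log2 fold change 0.25). Exons of 2700012I20Rik and Man2c1os overlap Sin3a on the other strand, and the strand setting of the counting is not given in the sources used here, so that reads of such pairs cannot be told apart. The paralogous scaffold Sin3b was not called, with log2 fold changes of 0.22 and 0.24.

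Sap30 (chromosome 8, 57482707 to 57487860), a small subunit that steadies the contact of Sin3 with the deacetylase, had the largest change in this complex. At P24 it was at 36.4, 41.7 and 16.3 normalized reads in the control libraries and 130.1, 139 and 178 in the dM1/2 libraries. At P28 it was at 44.8, 29.5 and 28.1 in control and 172, 209 and 172 in dM1/2. Every dM1/2 library was far above every control at these ages, with log2 fold changes of 2.30 ± 0.36 (SE, 95% confidence interval 1.45 to 3.15, limma adjusted p = 0.00474) and 2.43 ± 0.25 (SE, 95% confidence interval 1.83 to 3.02, limma adjusted p = 0.00084). At P60 the ranges overlapped, at 18.9, 11.9 and 36.9 and 10.1, 15.1 and 40. The P60 log2 fold change of -0.14 had a 95% confidence interval of -1.65 to 1.38, too wide to show that the groups were alike. Sap30 had the fewest reads in a single library of any member, with 4 reads in P60 dM1/2 replicate 1. In P60 libraries 1 read was worth 2.1 to 2.52 normalized reads and in P20 libraries 1.85 to 2.87, against 0.338 to 0.64 in anagen ones. Its paralogue Sap30l was called higher at P24 (log2 fold change 0.48, limma adjusted p = 0.0432) and not at P28 (0.16), and the P24 call was lost whichever of the 6 libraries was left out (limma adjusted p 0.0551 to 0.112).

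Suds3 (chromosome 5, 117091680 to 117116113), the subunit needed for full deacetylase activity of the complex, was at 906, 833 and 771 normalized reads in the control libraries and 1289.9, 1407 and 1614 in the dM1/2 libraries at P24. At P28 it was at 858, 813 and 905 in control and 1631, 1729 and 1410.3 in dM1/2. The dM1/2 libraries were above the controls throughout, with log2 fold changes of 0.78 ± 0.13 (SE, 95% confidence interval 0.48 to 1.07, limma adjusted p = 0.00546) and 0.88 ± 0.12 (SE, 95% confidence interval 0.59 to 1.17, limma adjusted p = 0.00222). Brms1 (chromosome 19, 5041354 to 5049917), a relative of Suds3, was at 102, 107 and 73.4 normalized reads in the control libraries and 151, 138 and 209 in the dM1/2 libraries at P24 and at 124, 109.5 and 117 and 172, 157 and 163 at P28. These groups did not overlap, but lay close. The log2 fold changes of Brms1 were 0.81 ± 0.24 (SE, 95% confidence interval 0.26 to 1.35, limma adjusted p = 0.0402) and 0.49 ± 0.16 (SE, 95% confidence interval 0.12 to 0.86, limma adjusted p = 0.0477), and both calls were lost whichever of the 6 libraries was left out (limma adjusted p 0.0576 to 0.116 at P24 and 0.0718 to 0.134 at P28). A further gene, AC124502.3, overlaps Brms1 exons on the same strand. Brms1l, the third of these relatives, was not called (log2 fold change -0.23 and 0.09).

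The PHD-finger proteins Ing1 and Ing2, which read trimethylated lysine 4 of histone H3, both rose, with the larger fold changes for Ing2. Ing2 (chromosome 8, 47667178 to 47675556) was at 159, 203 and 179 normalized reads in the control libraries and 521, 482 and 639 in the dM1/2 libraries at P24. It was at 202, 196 and 151 in control and 685, 604 and 628 in dM1/2 at P28. All dM1/2 values lay far above the highest control, and the log2 fold changes were 1.59 ± 0.16 (SE, 95% confidence interval 1.21 to 1.97, limma adjusted p = 0.00143) and 1.81 ± 0.16 (SE, 95% confidence interval 1.43 to 2.18, limma adjusted p = 0.000523). AA386476 overlaps its exons on the other strand. Ing1 (chromosome 8, 11555571 to 11563251) was at 477, 564 and 458 normalized reads in the control libraries and 858, 855 and 1068 in the dM1/2 libraries at P24 and at 485, 618 and 452 and 911, 1014 and 1028 at P28. Its groups were again apart, with log2 fold changes of 0.89 ± 0.14 (SE, 95% confidence interval 0.55 to 1.22, limma adjusted p = 0.00494) and 0.94 ± 0.15 (SE, 95% confidence interval 0.58 to 1.29, limma adjusted p = 0.00402).

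Arid4a, a DNA-binding subunit that also binds the retinoblastoma protein, was called higher at P24 (log2 fold change 0.69 ± 0.19, limma adjusted p = 0.0328) but not at P28 (0.53, 0.12). The P24 call was lost without control replicate 1 (limma adjusted p = 0.0723) and without dM1/2 replicates 1 (0.107), 2 (0.073) and 3 (0.0548). Its paralogue Arid4b was at 0.13 and 0.36 on the log2 scale, and Sap18, a small subunit also found in RNA-processing complexes, at -0.07 and 0.13, none of them called.

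Rbbp4 and Rbbp7 bind histone H4 and serve Sin3, NuRD and other chromatin complexes. Rbbp4 was called higher at P28, from 1986, 2013 and 2314 in control to 2575, 3248 and 2988 in dM1/2, a log2 fold change of 0.48 ± 0.14 (SE, 95% confidence interval 0.15 to 0.80, limma adjusted p = 0.0328). The groups did not overlap, but the call was lost without control replicate 1 (limma adjusted p = 0.125), control replicate 2 (0.0646), dM1/2 replicate 2 (0.118) and dM1/2 replicate 3 (0.108). Exons of Sync and Gm26722 overlap Rbbp4 on the other strand. Rbbp4 at P24 was at 0.14 on the log2 scale, and Rbbp7 at -0.22 and 0.02, none of them called.

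NuRD couples deacetylation to nucleosome remodelling, and 1 of its 9 subunits was called higher at P24, with 1 higher and 2 lower at P28. Those shares, 11.1% higher at P24 and 11.1% higher and 22.2% lower at P28, stood beside 14.8%, 20.0% and 15.6% of all genes, near the background. The median log2 fold change over the 9 was -0.05 at P24 and -0.09 at P28. The member that rose at both ages was Gatad2a (chromosome 8, 69907076 to 69996384), a p66 protein that links the Mbd subunit to the remodeller. It was at 1531, 1434 and 1789.5 normalized reads in the control libraries and 2397, 2528 and 2837 in the dM1/2 libraries at P24. At P28 it was at 1130.5, 1338 and 1225 in control and 2273, 2371 and 2396 in dM1/2. The groups were separate at both ages, with log2 fold changes of 0.71 ± 0.13 (SE, 95% confidence interval 0.41 to 1.01, limma adjusted p = 0.00785) and 0.93 ± 0.11 (SE, 95% confidence interval 0.67 to 1.20, limma adjusted p = 0.00139). Its paralogue Gatad2b was at -0.08 and -0.09.

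Chd3 fell at P28. It was at 5252, 4138 and 6845 normalized reads in the control libraries and 3063, 2442 and 3025 in the dM1/2 libraries, without overlap, and its log2 fold change was -0.91 ± 0.21 (SE, 95% confidence interval -1.40 to -0.41, limma adjusted p = 0.0154). The controls spread widely, and the call was lost without control replicate 1 (limma adjusted p = 0.0541) and without dM1/2 replicate 2 (0.0665). At P24 the groups overlapped (log2 fold change -0.27). Mta3 fell at P28, from 649, 582 and 715 to 462, 515 and 372, a log2 fold change of -0.53 ± 0.16 (SE, 95% confidence interval -0.92 to -0.15, limma adjusted p = 0.0402), and was at 0.29 at P24. The P28 call of Mta3 held without control replicate 2 and was lost in the other 5 of 6 (limma adjusted p 0.0521 to 0.127, with 0.0702 without control replicate 3). The other 6 NuRD subunits, the abundant Chd4, Mta1, Mta2 and Mbd3 among them together with Mbd2 and Gatad2b, had log2 fold changes between -0.34 and 0.22 in anagen, with confidence intervals between -0.78 and 0.68, and were not called.

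CoREST joins Hdac1 or Hdac2 to the histone H3 lysine 4 demethylase Kdm1a through an Rcor scaffold. Of its 6 subunits, 1 was called higher and 1 lower at P24, and 2 higher and 1 lower at P28. All genes were called higher in 14.8% and lower in 11.8% at P24, close to the 16.7% of CoREST subunits in each direction, and in 20.0% and 15.6% at P28, against 33.3% and 16.7%. Rcor2 (chromosome 19, 7267325 to 7275225) had the largest rise among all 35 members at P28. At P24 it was at 134, 142 and 209.6 normalized reads in the control libraries and 484, 461 and 582 in the dM1/2 libraries. At P28 it was at 53.5, 96.7 and 44 in control and 626, 638 and 573 in dM1/2. Controls were low and uneven at P28 and the dM1/2 libraries high and even, with log2 fold changes of 1.67 ± 0.20 (SE, 95% confidence interval 1.20 to 2.14, limma adjusted p = 0.0021) and 3.30 ± 0.29 (SE, 95% confidence interval 2.61 to 3.99, limma adjusted p = 0.000547). Without P28 control replicate 3 the P28 value was 3.07 (limma adjusted p = 0.000155). At P20 Rcor2 was at 99.1, 149 and 146 normalized reads in the control libraries and 296, 226 and 228 in the dM1/2 libraries, apart but not called (log2 fold change 0.93, limma adjusted p = 0.0821). At P60 the groups overlapped, at 81.9, 100.1 and 129 and 35.3, 106 and 141.

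The paralogues of Rcor2 were not called. Rcor1, the common scaffold, was at 859.9, 1012 and 870.0 normalized reads in the control libraries and 1092, 826 and 949.8 in the dM1/2 libraries at P28, and its log2 fold changes were 0.21 and 0.06. Rcor3 was at -0.09 and -0.28, and Kdm1a at -0.05 and 0.27, none of them called. Hmg20b, an HMG-box subunit, was called higher at P28, from 359.7, 409 and 370.1 to 588, 747 and 631, a log2 fold change of 0.78 ± 0.14 (SE, 95% confidence interval 0.45 to 1.11, limma adjusted p = 0.00576) that was called whichever library was left out. At P24 its groups overlapped (0.23).

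Phf21a (chromosome 2, 92093117 to 92364666), the subunit that reads unmethylated lysine 4 of histone H3, fell at both anagen ages. At P24 it was at 1093, 1221 and 1324 normalized reads in the control libraries and 837, 911 and 751 in the dM1/2 libraries. At P28 it was at 1221, 1045 and 1434 in control and 879, 607 and 629 in dM1/2. Each dM1/2 library was below each control, with log2 fold changes of -0.54 ± 0.13 (SE, 95% confidence interval -0.84 to -0.24, limma adjusted p = 0.019) and -0.81 ± 0.19 (SE, 95% confidence interval -1.27 to -0.36, limma adjusted p = 0.0162). The P24 call was lost without control replicate 2 (limma adjusted p = 0.0711) and dM1/2 replicates 1 (0.0617) and 3 (0.0561), and the P28 call without control replicate 1 (0.0568) and dM1/2 replicates 2 (0.0675) and 3 (0.065).

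The MIER proteins hold Hdac1 and Hdac2 through the same kind of domain as the Mta proteins, and 1 of the 3 was called, lower, in anagen. All genes were called lower in 11.8% at P24 and 15.6% at P28, and 3 genes are too few to set against these shares. Mier1 (chromosome 4, 103114390 to 103165754) fell at both ages. At P24 it was at 1033, 1069 and 1086 normalized reads in the control libraries and 757, 789 and 683 in the dM1/2 libraries, and at P28 at 1179.6, 1396 and 1158 and 736, 822 and 817. No dM1/2 library reached a control, and the log2 fold changes were -0.52 ± 0.11 (SE, 95% confidence interval -0.77 to -0.26, limma adjusted p = 0.0131) and -0.65 ± 0.12 (SE, 95% confidence interval -0.94 to -0.36, limma adjusted p = 0.00759). The P24 call was lost without control replicate 2 (limma adjusted p = 0.0563), while the P28 call held without any single library. Wdr78 overlaps its exons on the other strand. Mier2 was at 0.25 and 0.21 and Mier3 at 0.14 and 0.17, none called.

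Ncor1, the large scaffold that carries Hdac3 to nuclear receptors, fell at P28. It was at 4106, 3948 and 4500.0 normalized reads in the control libraries and 2995, 2413 and 2835 in the dM1/2 libraries, without overlap, a log2 fold change of -0.61 ± 0.13 (SE, 95% confidence interval -0.93 to -0.29, limma adjusted p = 0.0129). The call was lost without control replicate 1 (limma adjusted p = 0.0517) and dM1/2 replicate 2 (0.0545). At P24 the groups did not overlap either, but the log2 fold change of -0.35 was not called (limma adjusted p = 0.0987). Exons of Ttc19 and Pigl lie on the other strand. Gps2, a further NCoR subunit, was at -0.12 and -0.27, and Dnttip1, the MiDAC subunit, at -0.01 and 0.23, none called.

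**Figure D2:**
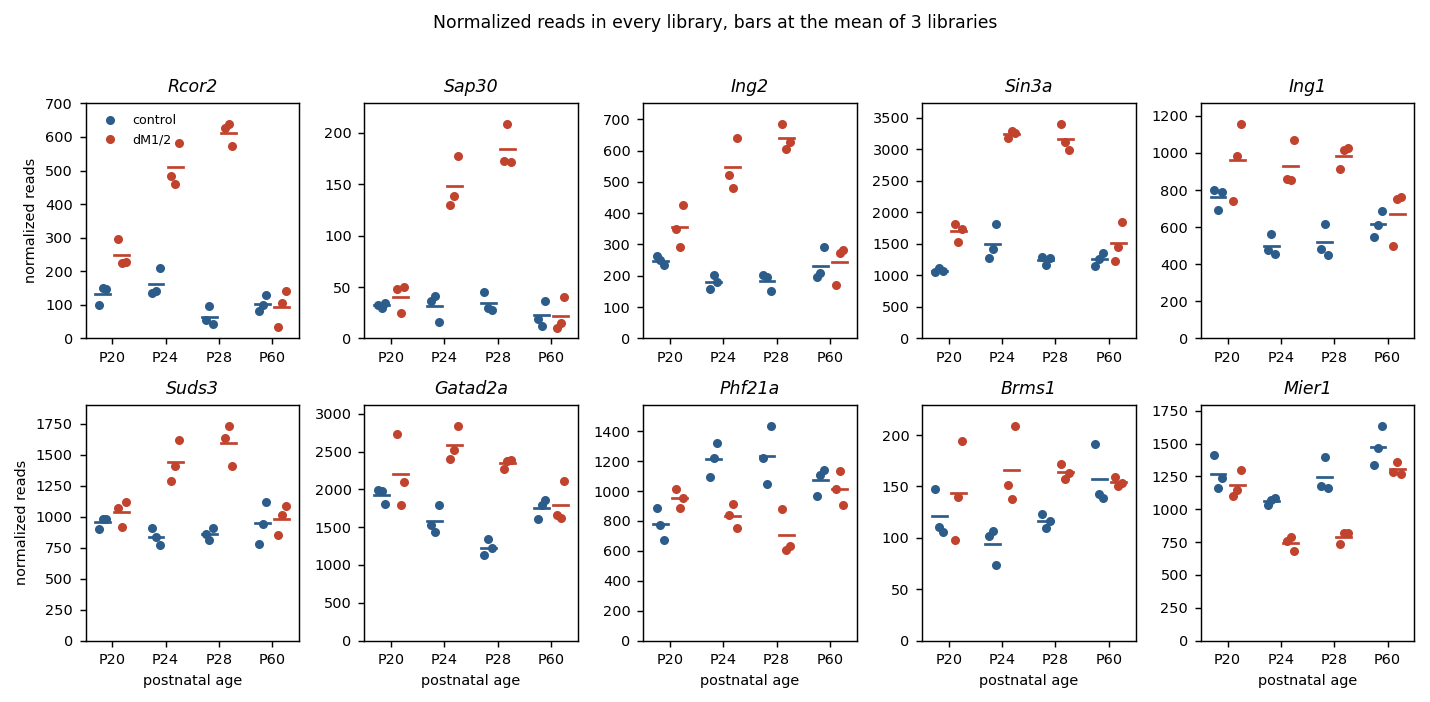
Normalized reads (linear axes from 0) of the 10 members called at both P24 and P28 in each of the 24 libraries, by age and genotype, 1 point a library with a bar at the mean of 3. In anagen the dM1/2 points of the 8 rising members lie above the control points and those of Phf21a and Mier1 below them.

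Without P28 control replicate 3, 9 members were called higher and 4 lower at P28 in place of 10 and 5. These were 25.7% and 11.4% of members, beside 21.8% and 19.1% of all genes in the same fit. The calls lost were those of Brms1 (limma adjusted p = 0.0718) and Mta3 (0.0702). Sin3a was then at 1.37, Sap30 at 2.31, Ing2 at 1.68 and Gatad2a at 0.93 on the log2 scale.

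Other genes of these complexes or of related ones, named in a list of 33 besides Hdac1 and Hdac2, changed in both directions. Of 29 tested at P24, 4 were called higher and 2 lower, and of 31 tested at P28, 10 higher and 8 lower. These were 13.8% and 6.90% at P24, no more than the 14.8% and 11.8% of all genes, and 32.3% and 25.8% at P28, against 20.0% and 15.6%. Among those called in the same direction at both ages were Fam60a (Sinhcaf), a Sin3 subunit, at log2 fold changes of 1.45 and 1.70 (limma adjusted p = 0.00139 and 0.00104), and Sap130, a further Sin3 subunit, at 0.51 and 0.60 (0.0219 and 0.00951). Pwwp2b, a NuRD-associated protein, was at 0.98 and 0.72, and Mxi1, a Max partner that recruits Sin3, at 0.58 and 0.93. Tbl1xr1, an NCoR subunit, fell, at -1.62 and -0.61. At P20 only Fam60a was called (1.22, limma adjusted p = 0.0454), and at P60 none of the list.

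Since paralogues take the same place in a complex, the ratio of their levels per kilobase of exon was followed in each library (means ± SD, n = 3). With 3 libraries against 3, the exact two-sided permutation test cannot go below 0.1, the value reached by every pair of groups named here as separate. The ratio of Rcor2 to Rcor1 went from 0.265 ± 0.0168 in control to 0.746 ± 0.195 in dM1/2 at P24 and from 0.125 ± 0.042 to 1.17 ± 0.194 at P28. Rcor2 thus made up 17.7% ± 1.2 of the summed Rcor level in P24 controls and 38.2% ± 5.75 in dM1/2, and 8.8% ± 3.05 and 48.5% ± 3.8 at P28. The P28 dM1/2 libraries thus held about as many Rcor2 as Rcor1 reads per kilobase.

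Sin3a to Sin3b was 1.44 ± 0.131 and 2.68 ± 0.162 at P24, and 1.36 ± 0.0607 and 2.94 ± 0.264 at P28, in control and dM1/2. Sap30 to Sap30l was 0.0931 ± 0.0261 and 0.448 ± 0.0482 at P28, and Ing2 to Ing1 0.403 ± 0.0599 and 0.738 ± 0.0974. Gatad2a to Gatad2b was 0.917 ± 0.161 and 1.85 ± 0.102. All of these groups were separate, with dM1/2 higher, and so were those of Sap30, Ing2 and Gatad2a over their paralogues at P24. The ratio of Mier1 to Mier2 was lower in dM1/2, 0.823 ± 0.0594 against 0.484 ± 0.0375 at P24 and 1.2 ± 0.0929 against 0.663 ± 0.0635 at P28. Chd3 to Chd4 overlapped at P24 and was lower at P28, 0.971 ± 0.104 against 0.561 ± 0.0347.

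Mta3 to Mta2 moved in opposite directions at the 2 ages, 0.135 ± 0.0155 against 0.17 ± 0.00525 at P24 and 0.259 ± 0.0025 against 0.164 ± 0.0225 at P28. The control ratios were higher at P28 than at P24, while those of dM1/2 lay close together at the 2 ages. Mta1 to Mta2, in contrast, overlapped at both, 0.95 ± 0.0393 against 0.975 ± 0.0507 and 1.08 ± 0.133 against 1.04 ± 0.0821, as did Mbd2 to Mbd3, Rcor3 to Rcor1 and Mier3 to Mier2. Rbbp4 to Rbbp7 and Brms1 to Brms1l were separate at both, with dM1/2 higher, and Arid4a to Arid4b at P24 only. At P20 the groups of Sin3a to Sin3b were separate, at 1.09 ± 0.0409 in control and 1.6 ± 0.127 in dM1/2. Those of Mier1 to Mier2 were at 1.39 ± 0.174 and 1.01 ± 0.0714, also separate. With dM1/2 higher, Rcor2 to Rcor1, Rcor3 to Rcor1 and Arid4a to Arid4b were separate at P20 too, and the other pairs overlapped. At P60 only Mbd2 to Mbd3 was separate.

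**Figure D3:**
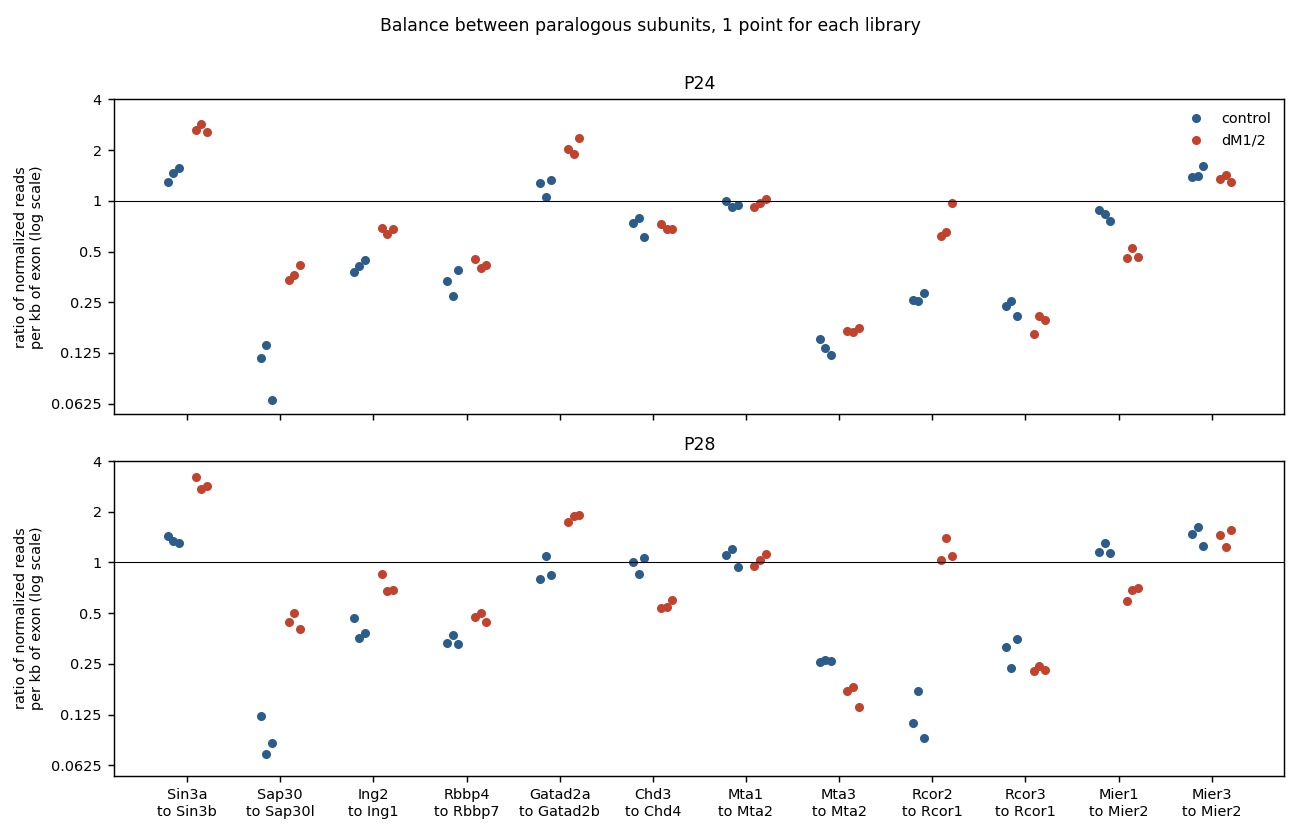
Ratio of paralogue levels per kilobase of exon (log axis) for 12 pairs in each P24 and P28 library, control in blue and dM1/2 in red, with a line at equal levels. The ratio of Rcor2 to Rcor1 is 0.091 to 0.172 in P28 controls and 1.03 to 1.39 in P28 dM1/2, and the points of Mta1 to Mta2 overlap.

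The members also differed between ages within the 12 control libraries. By limma's F test over the 4 ages, 17 of 35 were called, where 49.0% of all genes were, so that the share was that of the background. By complex they were 4 of 12 Sin3, 5 of 9 NuRD, 4 of 6 CoREST and 2 of 3 MIER subunits, and both Rbbp4 and Rbbp7. The difference between the highest and the lowest age mean on the log2 scale was largest for Brms1l at 1.38, followed by Rcor2 at 1.36, Chd3 at 1.19 and Mbd2 at 0.93. Brms1l was highest at P24 (557, 564 and 628 normalized reads) and lowest at P60 (220.4, 214 and 235), with P20 and P28 between. Chd3 was highest at P28 (5252, 4138 and 6845) and lowest at P60 (2609, 2402 and 1985), and its P24 and P28 values overlapped. Mbd2 was low at P24 (976, 844 and 567) and high at P60 (1564, 1592 and 1289).

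Some of the genes that rose in dM1/2 were lower at an anagen age than at P20 in controls, and others were not. Gatad2a was at 1998, 1983 and 1801 in P20 controls and 1130.5, 1338 and 1225 in P28 controls, and Ing1 at 801, 693 and 789 and 477, 564 and 458 in P20 and P24 controls. Sin3a was at 1280.2, 1420.3 and 1812 in P24 controls, above its P20 controls (1049.9, 1117 and 1061). Rcor2 had its lowest control mean at P28 and its highest at P24 (134, 142 and 209.6, overlapping P20), and its call was lost without P28 control replicate 1 (limma adjusted p = 0.0695) or replicate 3 (0.0557). The calls of Ing1 and Phf21a were lost without P20 control replicate 3 (0.063 and 0.0534). Calls of Brms1l, Rbbp7, Mta3, Chd3, Mbd2, Gatad2a and Rcor3 held without any single library. The number called fell to 9 without P20 control replicate 3, 10 without P24 control replicate 2 or P28 control replicate 1, and 11 without P24 control replicate 3 or P60 control replicate 2.

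**Figure D4:**
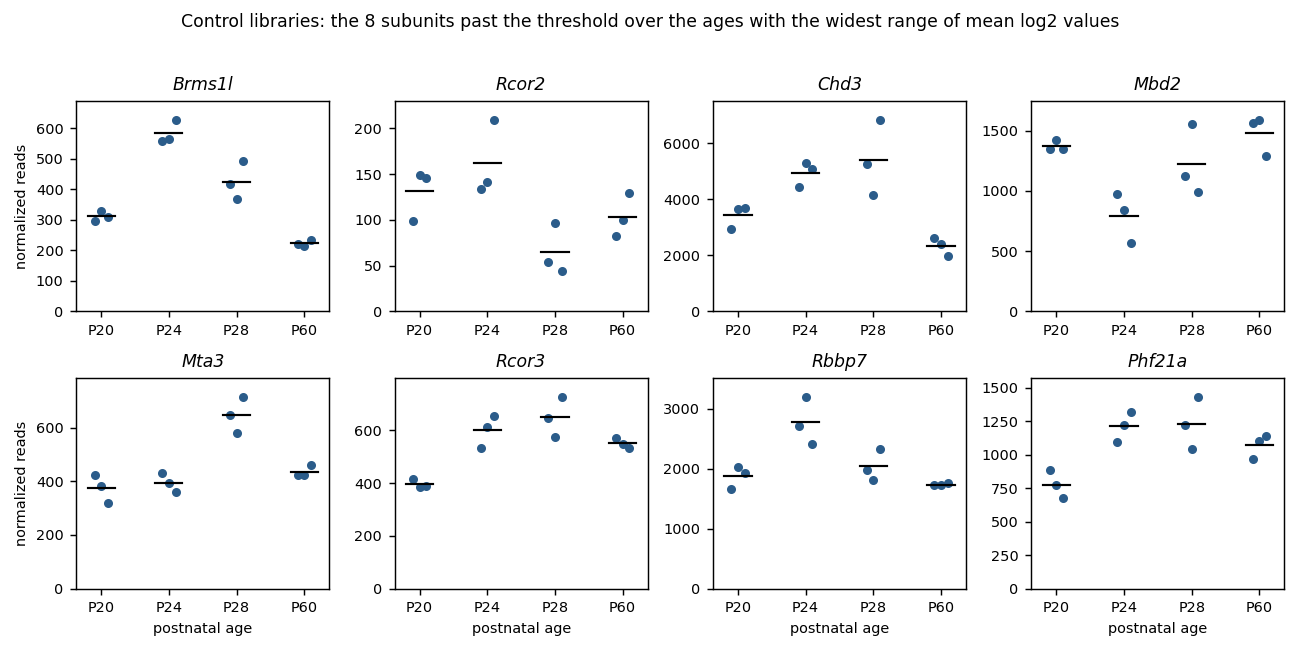
Normalized reads (linear axes from 0) in each control library by postnatal age for the 8 members with the widest range of mean log2 level among those called by limma's F test over ages, with a bar at the mean of 3 libraries. Brms1l peaks at P24, Mta3 and Chd3 are highest at P28, and Rcor2 is lowest at P28.

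Between P24 and P28 no member was called in controls (0.723% of all genes higher and 0.738% lower), in dM1/2 (1.69% and 0.983%) or in the difference of these changes (0.453% and 0.255%) by limma. In these tests 8, 4 and 4 members had an unadjusted p under 0.05, and the lowest limma adjusted p were 0.0641 for Mta3 in controls (log2 change 0.71), 0.0986 for Chd3 in dM1/2 (-0.53) and 0.0772 for Rcor2 in the difference (1.63). Without P28 control replicate 2 the difference was called for Rcor2 (1.96, limma adjusted p = 0.0177). DESeq2 called Mta3 higher (0.73, adjusted p = 0.000646) and Rcor2 lower (-1.31, 0.0172) in controls, Chd3 lower in dM1/2 (-0.53, 0.0176), and the difference for Rcor2 (1.57, 0.0059) and Mta3 (-0.84, 0.0144).

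Whether the effect of dM1/2 differed between anagen and telogen was tested over all 24 libraries as the mean effect at P24 and P28 minus that at P20 and P60. Of the members, 9 (25.7%) had a higher effect in anagen and 5 (14.3%) a lower one, against 16.1% and 14.1% of all genes, and the median difference was 0.06. The largest were Sap30 at 2.30 ± 0.45 (SE, limma adjusted p = 0.000833), Rcor2 at 2.18 ± 0.37 (0.000234) and Ing2 at 1.43 ± 0.20 (4.79e-05). Chd3 had the lowest at -0.90 ± 0.17 (0.000758), followed by Phf21a at -0.79 ± 0.15 (0.000665). The DP markers had 10 of 14 called lower and 1 higher in the same contrast, and the dividing-cell markers 7 of 10 higher, and their part in the members' values was not tested.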

How the data were processed

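RNA-seq libraries of sorted DP cells were prepared by the authors after ribosomal depletion with a directional kit and sequenced from 1 end. Per the labels and the study's methods, the authors used Trimmomatic for trimming, TopHat2 (version 2) for alignment to mm10 and HTSeq for counting on Ensembl GRCm38.p4 genes, and deposited DESeq2-normalized signal, which is each read count divided by a size factor. The 4 tables, 1 for each age, also hold the authors' fold changes and p-values, which were not used. Whole reads were recovered from the steps of the values for every entry, within a tolerance of 0.001, and served for depth and for the count-based alternatives. The recovered size factors were 0.349 to 0.541 in telogen and 1.56 to 2.96 in the deeper anagen libraries, so the 4 tables were not each scaled on their own. Within an age they did not always follow depth. At P28, control replicate 2 had 45866922 reads and the smallest factor of that age, 1.56. At P24, in contrast, the shallowest library had the smallest factor and the deepest the largest.

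Differences were tested with limma 3.58.1 (trend, two-sided) on log2(normalized reads + 1) within each age, leaving out genes whose mean was below 10 normalized reads in the libraries compared. The fold changes are on that scale, which understates changes of low genes. P-values were Benjamini-Hochberg adjusted over all genes tested, with a threshold of 0.05. Alternatives used a pseudocount of 10, no filter, at least 10 normalized reads in every library, a threshold of 0.01, log2-CPM with TMM scaling, edgeR 4.0.16, DESeq2 1.42.0 (both on recovered counts), a replicate block, a single fit over 24 libraries, and fits without 1 library at a time. Exons for levels per kilobase came from GENCODE M21 and promoter windows from RefSeq. The fits were tested on simulated data. Members, gene lists and marker lists were chosen with earlier results of these data known. Members called at both P24 and P28 in the same direction without overlap are given in full, and the others by fold change or range. The values of 1 listed gene are not reported here.

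The libraries are labelled as biological replicates, and p-values measure the spread between them. No pair of replicates agreed within sampling noise. Counting error is small beside that spread except for the sparsest members.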

Additional observations from a re-analysis of the deposited data

Results flagged for a closer look

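For 14 members the effect of dM1/2 differed between anagen (P24 and P28) and telogen (P20 and P60) by limma's test of the difference itself, over all 24 libraries. The shares of members called were 25.7% above 0 and 14.3% below 0, where 16.1% and 14.1% of all genes were. The differences in log2 fold change, anagen minus telogen, were above 0 for 9 members. Among Sin3 subunits they were 0.78 for Sin3a (limma adjusted p = 0.000271), 2.30 for Sap30 (0.000833), 0.74 for Suds3 (0.000409), 0.70 for Ing1 (0.00529) and 1.43 for Ing2 (4.79e-05). The difference was 0.33 for Rbbp4 (limma adjusted p = 0.0345), 0.72 for Gatad2a (0.000662), 2.18 for Rcor2 (0.000234) and 0.43 for Hmg20b (0.0403). They were below 0 for 5 members, at -0.90 for Chd3 (limma adjusted p = 0.000758), -0.42 for Rcor3 (0.0274), -0.79 for Phf21a (0.000665), -0.44 for Mier1 (0.00395) and -0.58 for Ncor1 (0.00192).

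Rbbp4 and Hmg20b lost the call when any of several libraries was left out, with limma adjusted p up to 0.0703 and 0.0811, and Rcor3 lost it without P24 dM1/2 replicate 3 (0.0537) or P28 dM1/2 replicate 2 (0.0549). Within an age Rcor3 was not called with all libraries, and its groups did not overlap at P20, with dM1/2 higher (log2 fold change 0.51, limma adjusted p = 0.0828). Stage, sex and depth cannot be told apart in this contrast, and the dividing-cell markers differed in the same way, with 7 of 10 called.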

How the results depend on the processing

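In P20 libraries 1 read was worth 1.85 to 2.87 normalized reads, so that levels of the least abundant members are coarser there than in anagen. Of the members called higher at P20 (1), a single fit over 24 libraries and a threshold of 0.01 each left 0 and DESeq2 gave 2. A threshold of 0.01 left 0 lower at P24, 1 lower at P28 and 6 of 17 called over ages in controls. DESeq2 gave 1 member higher and 1 lower from P24 to P28 in controls, 1 lower in dM1/2, and 1 higher and 1 lower for the difference, where limma called none. The cause was not tested. Leaving out 1 library at a time gave 0 to 4 members higher at P20, 7 to 8 higher and 0 to 2 lower at P24, 8 to 9 higher and 1 to 5 lower at P28, 0 to 1 higher for the difference of P24 to P28 changes, 9 to 17 over control ages, and 7 to 10 higher and 4 to 6 lower for anagen minus telogen. Both genotype groups share replicate numbers, but the numbers did not pair the libraries: deviations of same-numbered control and dM1/2 libraries correlated at 0.21, 0.06 and 0.123 at P20, -0.159, 0.028 and -0.388 at P24, -0.168, 0.015 and -0.236 at P28, and 0.304, 0.029 and 0.152 at P60. Not every library correlated best with the library of its own number at any age. With the replicate block, 7 members were called higher and 0 lower at P24, and 8 higher and 4 lower at P28, without Sap30l, Brms1, Arid4a, Phf21a and Mier1 at P24 and Brms1, Rbbp4 and Mta3 at P28. The calls of Sap30l and Brms1 at P24 and Brms1 at P28 were also lost with no filter (limma adjusted p = 0.0566, 0.059 and 0.0815), that of Mta3 at P28 with log2-CPM and TMM (0.0508), and that of Brms1 at P28 with log2-CPM and TMM (0.051), edgeR (0.0582 with TMM, 0.0548 with DESeq2 size factors) and the single fit (0.0904). The block called Hdac1 at P20 (-0.72, limma adjusted p = 0.0445), and Hmg20b lost its call for anagen minus telogen with the block (0.082) and with no filter (0.0501). Over all genes the replicate block gave 240 higher and 199 lower at P20 against 49 and 11, and DESeq2 293 and 380. Fold changes of the ablated genes changed sign in 6 cases. Without 1 library, Hdac1 at P28 ranged from -1.13 to 0.03 (the latter without control replicate 2), Hdac2 at P20 from -0.0628 to 0.0464 (above 0 without control replicate 2, dM1/2 replicate 2, 0.00987, and dM1/2 replicate 3, 0.0107) and Hdac2 at P60 from -0.0178 (without control replicate 3) to 0.16. Hdac2 at P20 was at 0.00115 with log2-CPM and TMM. None of the values that changed sign was called by limma.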
